A study of Mus musculus with 8 samples.

Results

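The genes described here are the nuclear genes named for the mitochondrial respiratory chain and ATP synthase, most of them subunits. They were taken by name: every non-control probe whose gene name in the scanner files began with Nduf, Uqcr, Atp5 or Cox4 to Cox8, or was Sdha, Sdhb, Sdhc or Sdhd. That found 92 genes read by 143 probes. Each gene was represented by its brightest probe, and 89 genes were well above background on all 8 arrays, out of 21519 genes tested on the array. The other 3, Cox8b, Cox8c and Ndufa4l2, were well above background on 0 arrays and are left out. The dimmest genes kept were Cox7b2 and Atp5s, with mean log2 levels of -2.40 and -2.33 relative to the array's 75th percentile, while the 3 left out averaged -4.65 (Ndufa4l2), -5.73 (Cox8c) and -6.01 (Cox8b).

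RNA came from CD4+ T cells of C57BL/6 mice, isolated 4 days after immunisation, and each sample was hybridised to 1 one-colour Agilent array. The 4 groups of 2 samples were tumour-bearing mice given anti-IL-6R, an antibody against the IL-6 receptor (replicates 7 and 8), tumour-free mice given anti-IL-6R (replicates 5 and 6), tumour-bearing mice given a control antibody (replicates 3 and 4) and tumour-free mice given the control antibody (replicates 1 and 2). Tumour-bearing mice carried MCA205-OVA, a fibrosarcoma line made to express ovalbumin (OVA). All 4 groups had been given CD4+ T cells carrying a transgenic receptor for OVA, and dendritic cells loaded with OVA peptide, so the controls were immunised too. The isolates are bulk CD4+ T cells, and neither the share of transferred cells among them, nor the purity, nor the number of mice per sample is stated in the labels used here. The labels name 2 independent experiments per condition without saying which arrays belong together, so p-values measure only the spread between these samples.

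The respiratory chain passes electrons from NADH and succinate to oxygen and pumps protons across the inner mitochondrial membrane, and ATP synthase uses that gradient to make ATP. Complex I (the Nduf genes) takes electrons from NADH and complex II (Sdha to Sdhd) from succinate. Complex III (the Uqcr genes) passes them from ubiquinone to cytochrome c, complex IV (the Cox genes and Ndufa4) passes them to oxygen, and complex V (the Atp5 genes) is the ATP synthase. Most subunits are encoded in the nucleus, while the mitochondrial genome encodes a few core subunits of complexes I, III, IV and V. T cells raise both respiration and glycolysis when they are activated.

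The 89 genes comprised 7 core subunits, 29 accessory subunits and 7 assembly factors of complex I, 4 subunits of complex II, 8 of complex III, 16 of complex IV and 15 of complex V. The prefixes also caught 3 genes that are not subunits: Atp5c1-ps, a pseudogene of Atp5c1, and Atp5s and Atp5sl, whose current names in the reference table are Dmac2l and Dmac2. These 3 are kept in all counts and given as a class of their own. Of the defining CD4+ T cell markers all 7 measured (Cd3e, Cd3d, Cd3g and Cd4 among them) were well above background on all 8 arrays.

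The genes past the threshold were each read by the probes below, shown because every value of Ndufb9, Uqcrq and Cox7b2 rests on that single probe. The first 30 bases of each 60-base probe are given 5′ to 3′, with the mm9 position of the whole probe from the scanner file.
Ndufb9, chr15:58770972-58771031, plus strand: ctcactgttcatgcttgcaagtgagagttt
Uqcrq, chr11:53242471-53242530, minus strand: tgcctctgaaagacccttctctgggagagg
Atp5h, chr11:115277011-115277070, minus strand: aacctgtgaagcagcctgggacggagcccc
Cox7b2, chr5:71834167-71834226, minus strand: cccaagagtggaagaagaagtaaatatctt
Ndufb9 is an accessory subunit of complex I, Uqcrq a small subunit of complex III and Atp5h the d subunit of the peripheral stalk of ATP synthase. Cox7b2 is an isoform of complex IV subunit 7b.

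Levels are log2 of the processed spot signal minus the 75th percentile of its array, so 0 is the 75th percentile, and differences are log2 differences of group means with their standard error (SE, n = 2 arrays per group) from limma. A gene is called when its p, adjusted over all 21519 genes, is under 0.05. The signal of a bulk isolate does not tell fewer cells of a type from less RNA per cell.

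Under the control antibody, respiratory chain genes were slightly higher where the mice bore a tumour. Among tumour-bearing mice they were slightly lower with anti-IL-6R than with the control antibody. The shift was small and spread over nearly all genes: the median log2 difference was 0.20 in the first comparison (1.15-fold) and -0.27 in the second (0.829-fold), against 0.027 and -0.051 over all genes tested. Without replicate 2, a tumour-free control array, the first median was 0.12. All genes tested include many dimmer genes, and no set of genes matched for signal level was compared. Of the 89 genes, 84 lay above 0 in the first and 86 below 0 in the second. Over all genes tested, 55.0% lay above 0 in the first and 42.2% above 0 in the second, a lean the same way. Both comparisons share the tumour-bearing control arrays, so a high value on those arrays enters both with opposite sign.

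Few single genes passed the threshold. In tumour-bearing against tumour-free mice under the control antibody 2 of 89 genes were called, 1 higher and 1 lower, where 6.23% of all genes were called. The antibody comparison in tumour-bearing mice gave 3 called genes, all 3 lower, where 5.88% of all genes were called. The shares among the respiratory chain genes were 2.25% and 3.37%, below those of all genes. These counts depend on the scaling: after quantile normalization 15 (16.9%) and 16 (18%) were called, against 6.8% and 6.03% of all genes. Counts without adjustment stood above the background. In the tumour comparison 44 of 89 (49.4%) were higher at an unadjusted p under 0.05, against 14.2% of all genes, and 64 (71.9%) had both tumour-bearing arrays above both tumour-free arrays, against 30.1% of all genes. In the antibody comparison 62 (69.7%) were lower at an unadjusted p under 0.05, against 17.2% of all genes, and 81 (91.0%) had both anti-IL-6R arrays below both control arrays, against 36.3%. These genes moved together on each array, so the counts are not those of independent genes.

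The level of the whole group on each array, taken as the median over the 89 genes of the deviation from the gene's own mean, was -0.063 and -0.19 in tumour-bearing mice with anti-IL-6R (replicates 7 and 8), 0.082 and 0.011 in tumour-free mice with anti-IL-6R (replicates 5 and 6), 0.094 and 0.18 in tumour-bearing mice with control antibody (replicates 3 and 4), and 0.022 and -0.15 in tumour-free mice with control antibody (replicates 1 and 2). Replicate 4 was the highest and replicate 8 the lowest array. The 2 tumour-free control arrays differed by a median of 0.17, nearly as much as the tumour-bearing and tumour-free groups did, and 88 of 89 genes were higher on replicate 1 than on replicate 2. In the other groups 84 genes were higher on replicate 7 than on 8 (median gap 0.12), 83 on replicate 5 than on 6 (0.074) and 16 on replicate 3 than on 4 (-0.084). All genes tested leaned the same way less far: 63.2% were higher on replicate 1 than on 2, with a median gap of 0.068. The 95th percentile of all genes tested, a level of bright genes, also differed between arrays. It was 5.60 and 5.51 on replicates 7 and 8, and 5.69 and 5.66 on replicates 5 and 6. On replicates 3 and 4 it was 5.65 and 5.69, and on replicates 1 and 2 it was 5.66 and 5.53. Like the respiratory chain median, it was highest on replicate 4 and lowest on replicate 8. Whether bright genes in general shifted this way was not tested. By group mean, 75 of the 89 genes were highest in tumour-bearing mice with control antibody and 76 were lowest in tumour-bearing mice with anti-IL-6R.

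**Figure D1:**
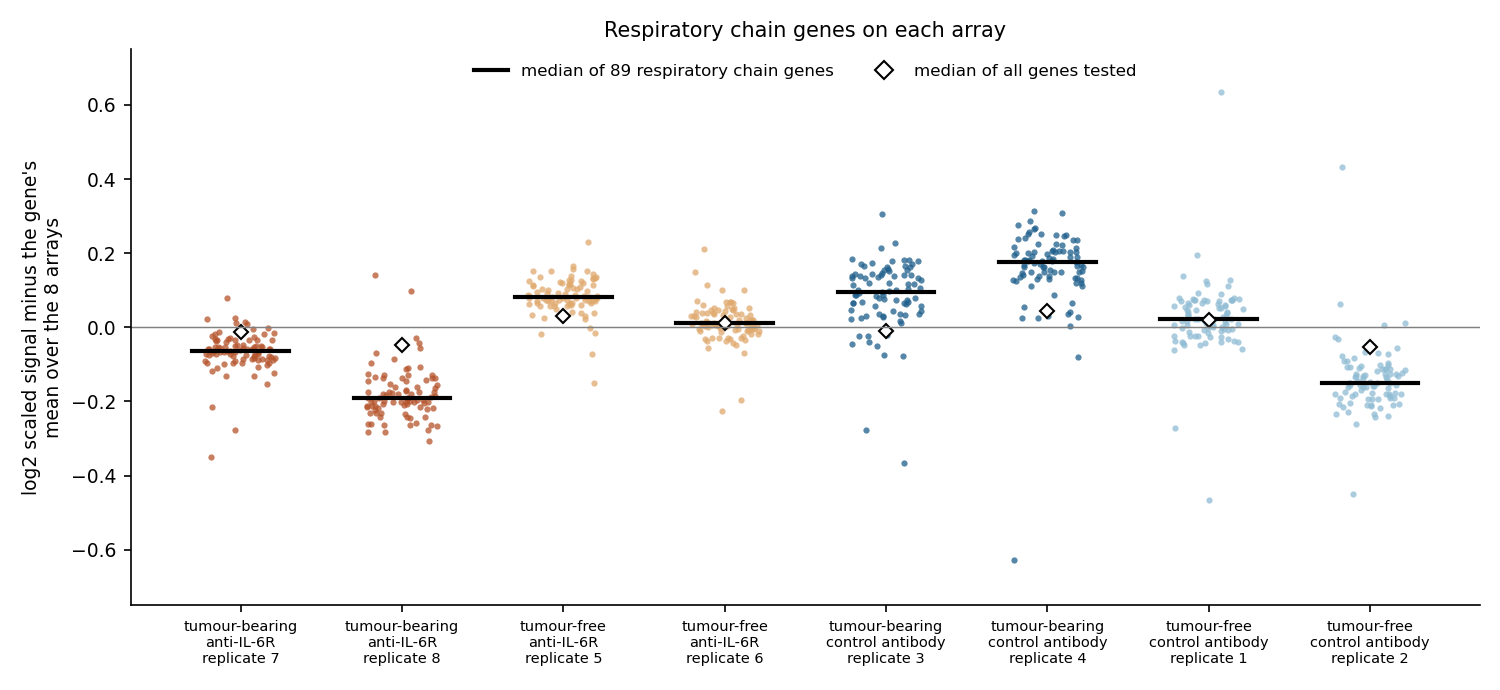
Log2 scaled signal of each respiratory chain gene minus its mean over the 8 arrays (vertical axis), by array and group (horizontal axis). Points are the 89 genes, bars their median and diamonds the median of all genes tested; 3 of 712 points lie outside the axis. The medians run between -0.19 on replicate 8 and 0.18 on replicate 4, and the 2 tumour-free control arrays stand apart from each other.

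In complex I the called gene was the accessory subunit Ndufb9. Its level was 4.63 and 4.45 in tumour-bearing mice with anti-IL-6R, 4.76 and 4.69 in tumour-free mice with anti-IL-6R, 4.92 and 5.00 in tumour-bearing mice with control antibody, and 4.65 and 4.46 in tumour-free mice with control antibody. Both tumour-bearing control arrays lay above the other 6. Under the control antibody Ndufb9 rose by 0.41 ± 0.09 in tumour-bearing mice (limma, adjusted p = 0.041), and in tumour-bearing mice it fell by 0.42 ± 0.09 with anti-IL-6R (adjusted p = 0.041). The first call was lost without replicate 2, 3, 4, 5 or 6, and in 5 of 9 other settings: normexp background, no filter, no variance trend, array weights and a fit of only the 2 groups. The second was lost without replicate 3, 4 or 8, and with no filter, no variance trend or a fit of only the 2 groups.

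The 29 accessory subunits of complex I, which surround the catalytic core and are needed for its assembly and stability, all lay above 0 in the tumour comparison under the control antibody (median 0.23) and all below 0 in the antibody comparison in tumour-bearing mice (median -0.31). Next to Ndufb9 by p in the tumour comparison were Ndufb8 at 0.32 ± 0.08, Ndufa13 at 0.30 ± 0.08 and Ndufa1 at 0.33 ± 0.09 (adjusted p = 0.055, 0.071 and 0.076). In the antibody comparison the next were Ndufb6, named after its values were seen, at -0.36 ± 0.09 and Ndufb8 at -0.32 ± 0.08 (adjusted p = 0.052 and 0.054). A dimmer probe of Ndufa13 gave -0.13 in the tumour comparison. For Ndufb8 a dimmer probe gave only 0.03 in the tumour comparison and -0.06 in the antibody comparison. Dimmer probes of Ndufv1 and Ndufaf7, both described below, gave -0.01 and 0.05 in the tumour comparison. In the antibody comparison those probes gave -0.20 and -0.11. Ndufb8 stood at 4.74 and 4.63 in tumour-bearing mice with anti-IL-6R, 4.85 and 4.74 in tumour-free mice with anti-IL-6R, 4.97 and 5.03 in tumour-bearing mice with control antibody, and 4.75 and 4.61 in tumour-free mice with control antibody. The 7 core subunits, which carry the flavin and the iron-sulphur clusters that pass electrons on, had smaller medians of 0.12 and -0.28. Among them Ndufs8 differed by 0.24 ± 0.09 and Ndufv2 by 0.21 ± 0.09 in the tumour comparison (adjusted p = 0.13 and 0.21), and Ndufs8 by -0.33 ± 0.09 in the antibody comparison (adjusted p = 0.058). Ndufv1, which binds NADH, stood at 0.12 ± 0.08 and -0.29 ± 0.08 (adjusted p = 0.43 and 0.063), and Ndufs7 at 0.12 ± 0.07 and -0.15 ± 0.07 (adjusted p = 0.33 and 0.20). Whether core and accessory subunits differ was not tested. The 7 assembly factors, which build complex I without staying in it, had medians of 0.14 and -0.23, with Ndufaf7, a methyltransferase that acts on a core subunit, at 0.22 ± 0.08 and -0.30 ± 0.08 (adjusted p = 0.16 and 0.066). Ndufaf4 was the exception among them, at -0.15 ± 0.12 and 0.16 ± 0.12 (adjusted p = 0.47 and 0.39).

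Complex II had medians of 0.13 and -0.21 over its 4 subunits. Sdhb, which holds its iron-sulphur clusters, stood at 0.24 ± 0.09 in the tumour comparison and -0.31 ± 0.09 in the antibody comparison (adjusted p = 0.16 and 0.077). Sdhd, a membrane anchor, stood at 0.23 ± 0.09 and -0.24 ± 0.09 (adjusted p = 0.16 and 0.12). Sdhc, the other anchor, stood at 0.04 ± 0.09 and -0.18 ± 0.09 (adjusted p = 0.85 and 0.24). Sdha, named after its values were seen, stood at 0.03 and -0.11. Its dimmer probes gave -0.08, -0.15 and -0.29 in the tumour comparison and -0.04, -0.01 and 0.14 in the antibody comparison.

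In complex III the called gene was Uqcrq, in the antibody comparison. Its level was 5.96 and 5.76 in tumour-bearing mice with anti-IL-6R and 6.22 and 6.29 in tumour-bearing mice with control antibody. The tumour-free arrays lay at 6.13 and 6.08 with anti-IL-6R and at 6.05 and 5.85 with control antibody. Uqcrq fell by 0.40 ± 0.09 with anti-IL-6R in tumour-bearing mice (adjusted p = 0.048), and stood at 0.31 ± 0.09 in the tumour comparison (adjusted p = 0.093). The call was lost without replicate 1, 3, 4, 5, 6 or 8, and in 5 of 9 other settings: no filter, no variance trend, array weights, a fit of only the 2 groups and the mean over probes. The 8 subunits had medians of 0.18 and -0.28, and all 8 lay above 0 in the first and below 0 in the second. Uqcrc1, a core protein of the complex, stood at 0.21 ± 0.08 and -0.29 ± 0.08 (adjusted p = 0.15 and 0.058). Uqcr10, another small subunit, stood at 0.31 ± 0.09 and -0.28 ± 0.09 (adjusted p = 0.078 and 0.083).

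Complex V had medians of 0.20 and -0.27 over 15 genes, with all 15 above 0 in the tumour comparison and below 0 in the antibody comparison. Atp5h was called in the antibody comparison. Its level was 6.41 and 6.42 in tumour-bearing mice with anti-IL-6R, below the other 6 arrays. Those lay at 6.77 and 6.69 in tumour-free mice with anti-IL-6R, 6.81 and 6.93 in tumour-bearing mice with control antibody and 6.82 and 6.62 in tumour-free mice with control antibody. Atp5h fell by 0.46 ± 0.09 with anti-IL-6R in tumour-bearing mice (adjusted p = 0.030), a call lost without replicate 3, 4, 7 or 8, and also without a filter, without a variance trend and with the mean over its probes. Its other 2 probes gave -0.28 and -0.22. It stood at 0.15 ± 0.09 in the tumour comparison (adjusted p = 0.33). Its partners in the stalk, Atp5f1 (subunit b) and Atp5j (subunit F6), stood at 0.25 and 0.25 in the tumour comparison and -0.30 and -0.26 in the antibody comparison (adjusted p = 0.13 and 0.11, and 0.068 and 0.080). Atp5c1, the rotating gamma subunit, stood at 0.19 ± 0.08 and -0.25 ± 0.08 (adjusted p = 0.19 and 0.091). The 3 genes Atp5g1, Atp5g2 and Atp5g3 encode the same mature c subunit of the proton-driven ring with different import signals. They stood at 0.24, 0.18 and 0.20 in the tumour comparison and -0.31, -0.27 and -0.30 in the antibody comparison (adjusted p = 0.11, 0.20 and 0.21, and 0.054, 0.070 and 0.073). However, a dimmer probe of Atp5g3 gave -0.42 and 0.04, and the other probes of Atp5g1 disagreed in sign.

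**Figure D2:**
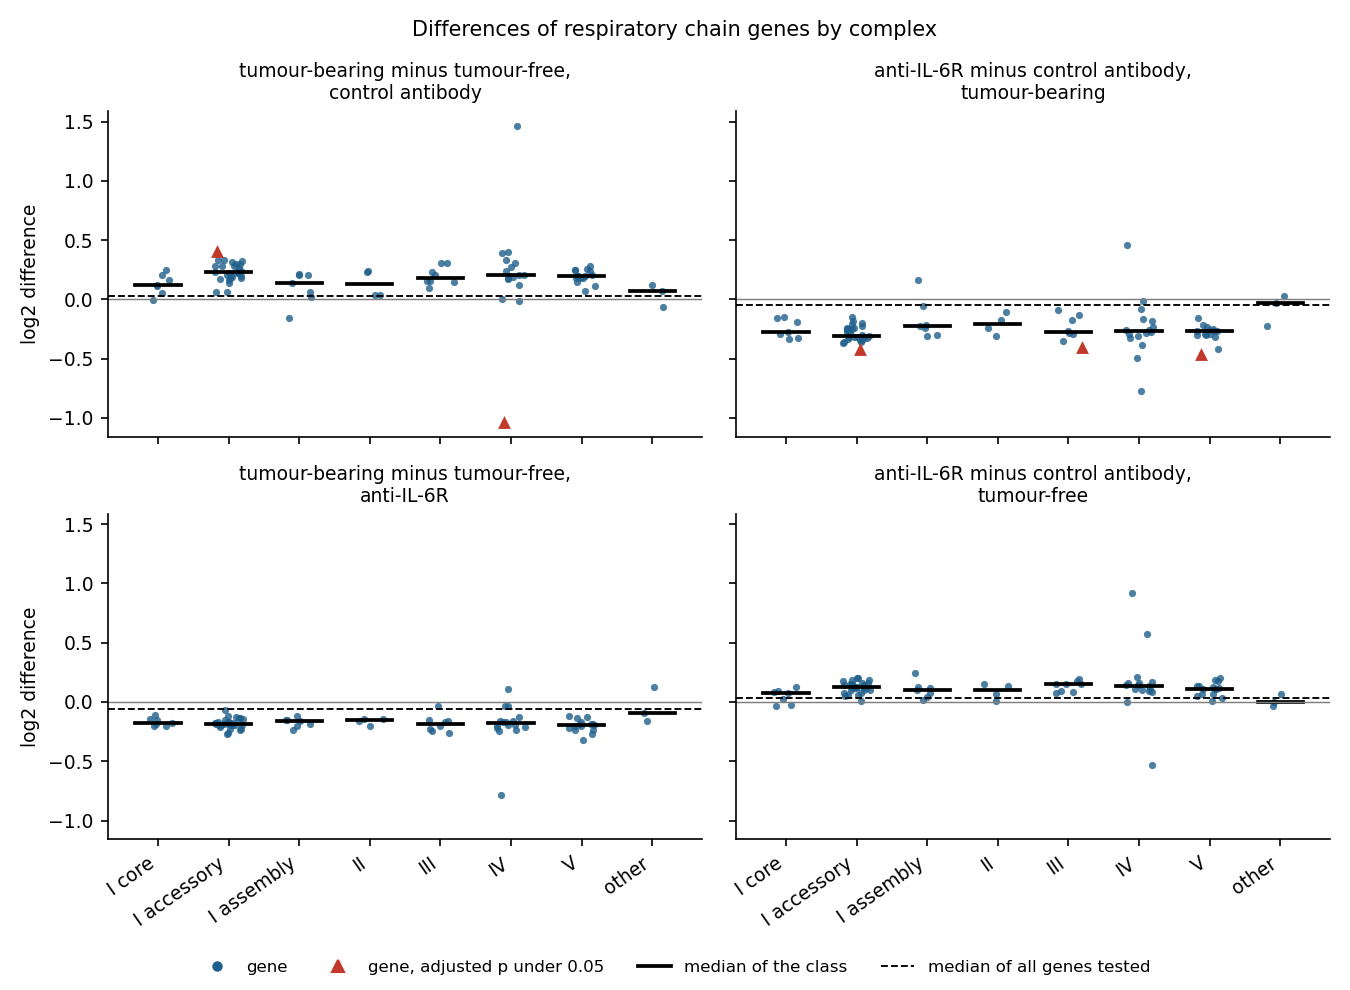
Log2 difference of group means (vertical axis) for each respiratory chain gene by class (horizontal axis), in 4 comparisons. Points are genes, triangles genes called at an adjusted p under 0.05, bars class medians and the dashed line the median of all genes tested. Medians of complexes I to V are 0.12 to 0.23 in the tumour comparison under control antibody and -0.31 to -0.21 in the antibody comparison in tumour-bearing mice.

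Complex IV held the genes with the largest differences and the called gene that went against the rest. Its 11 ubiquitous subunits had medians of 0.20 and -0.28, all above 0 in the tumour comparison and all below 0 in the antibody comparison, with Ndufa4 at 0.33 ± 0.09 and -0.32 ± 0.09 (adjusted p = 0.079 and 0.069) and Cox8a at 0.20 ± 0.06 and -0.25 ± 0.06 (adjusted p = 0.093 and 0.052). Cox7a2, the widely expressed isoform of subunit 7a, stood at 0.24 ± 0.08 and -0.28 ± 0.08 (adjusted p = 0.12 and 0.067). Cox7a2l, a factor of supercomplexes of complexes III and IV that is counted here among the 11, stood at 0.01 ± 0.08 and -0.08 ± 0.08 (adjusted p = 0.98 and 0.52). The 5 isoforms that are best known from particular tissues had differences between -1.03 and 1.46 in the tumour comparison.

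Cox7b2 was the 1 called gene that went the other way. Its level was -2.62 and -2.26 in tumour-bearing mice with anti-IL-6R, -2.55 and -2.25 in tumour-free mice with anti-IL-6R, -2.77 and -3.03 in tumour-bearing mice with control antibody, and -1.77 and -1.97 in tumour-free mice with control antibody. Both tumour-free control arrays lay above the other 6. Cox7b2 fell by 1.03 ± 0.21 in tumour-bearing mice under the control antibody (adjusted p = 0.029), and this call was lost without replicate 1, 2, 3 or 4, that is, without any 1 array of the groups compared, and also without a filter. In the antibody comparison in tumour-bearing mice it stood at 0.46 ± 0.21 (adjusted p = 0.18). It is among the dimmest of the 89 genes, although well above background on all 8 arrays.

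Cox6a2, the heart and skeletal muscle isoform of subunit 6a, had a level of 0.89 and 0.75 in tumour-bearing mice with anti-IL-6R, 0.80 and 0.62 in tumour-free mice with anti-IL-6R, 2.27 and 0.93 in tumour-bearing mice with control antibody, and 0.35 and -0.08 in tumour-free mice with control antibody. Replicate 3 alone was high in its group. Its difference of 1.46 ± 0.36 in the tumour comparison was the largest of the 89 genes and missed the threshold (adjusted p = 0.054). It was 0.79 without replicate 3 and 2.13 without replicate 4. In the antibody comparison in tumour-bearing mice it stood at -0.78 ± 0.36 (adjusted p = 0.20), at -0.11 without replicate 3 and at -1.44 without replicate 4. Both differences passed the threshold without replicate 4, a fit in which the high array stands alone for its group and is assumed to vary like the other groups. Its ubiquitous counterpart Cox6a1 stood at 0.13 ± 0.09 in the tumour comparison (adjusted p = 0.45). Cox7a1, the muscle isoform of subunit 7a, read -0.25 on replicate 5 and between -2.03 and -1.54 on the other 7 arrays. It was not called in any comparison with all arrays. In tumour-free mice with anti-IL-6R against control antibody it stood at 0.92 with all arrays, 0.14 without replicate 5 and 1.70 without replicate 6. It passed the threshold without replicate 6, where replicate 5 alone stands for its group on the same assumption. Cox6b2, a testis isoform of subunit 6b, stood at 0.40 ± 0.13 in the tumour comparison and -0.49 ± 0.13 in the antibody comparison (adjusted p = 0.10 and 0.055). Its counterpart Cox6b1 stood at 0.21 ± 0.09 and -0.31 ± 0.09 (adjusted p = 0.20 and 0.069). Cox4i2, an oxygen-responsive isoform of subunit 4 known from lung, stood at -0.015 ± 0.10 and -0.017 ± 0.10 (adjusted p = 0.95 and 0.93), against 0.19 ± 0.09 and -0.18 ± 0.09 for Cox4i1 (adjusted p = 0.26 and 0.23).

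**Figure D3:**
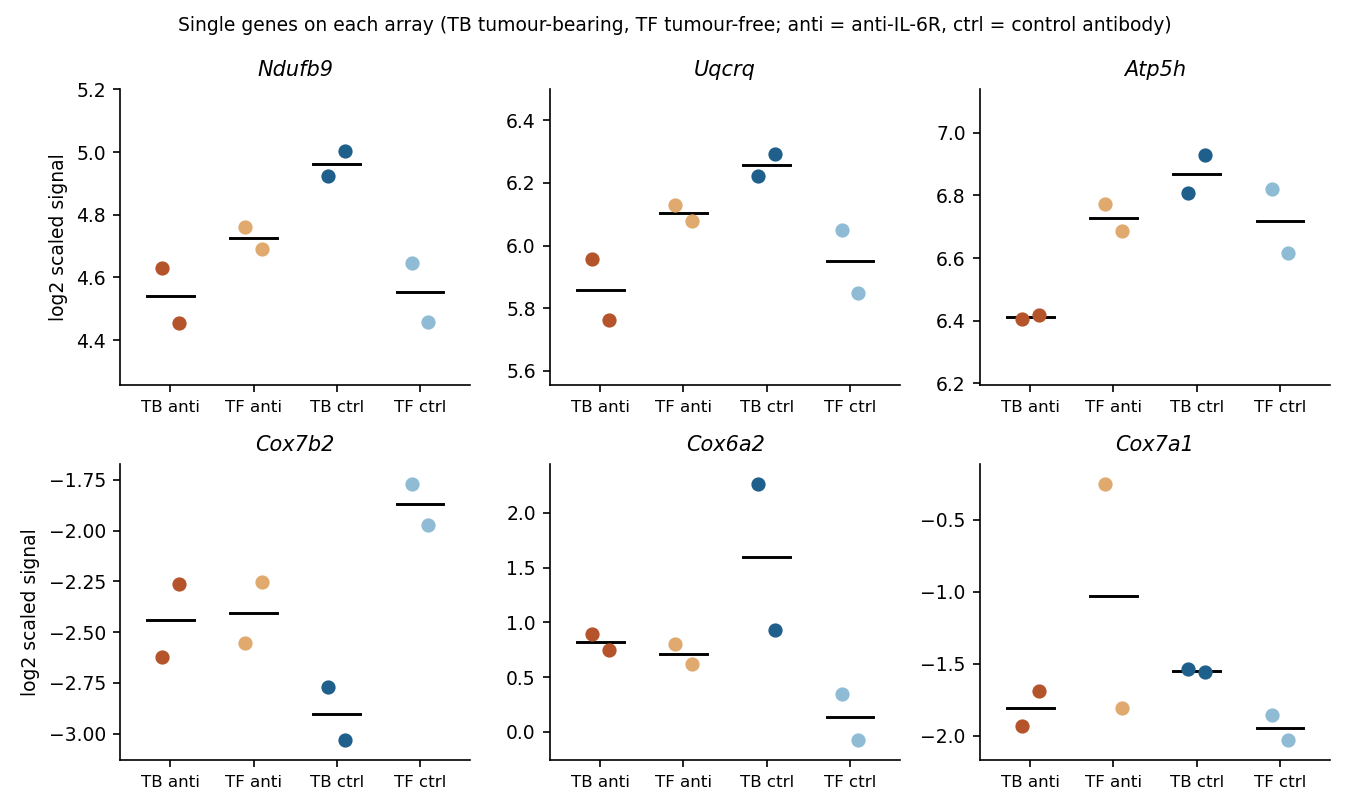
Log2 scaled signal (vertical axis, a scale of its own for each gene) of the 4 called genes and of Cox6a2 and Cox7a1 in the 4 groups (horizontal axis). Points are arrays and bars group means. Ndufb9 and Uqcrq are highest on both tumour-bearing control arrays, Atp5h is lowest on both tumour-bearing anti-IL-6R arrays, Cox7b2 is highest on both tumour-free control arrays, and Cox6a2 and Cox7a1 each have 1 array far above its partner.

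The genes below 0 in the tumour comparison under control antibody were Cox7b2, Ndufaf4, Atp5sl, Cox4i2 and Ndufs1, and those above 0 in the antibody comparison in tumour-bearing mice were Cox7b2, Ndufaf4 and Atp5s. Ndufs1, named after its value was seen, lay at -0.004. Of the genes outside the complexes, Atp5c1-ps stood at 0.12 and -0.22, Atp5sl at -0.07 and -0.03 and Atp5s at 0.07 and 0.03. For 32 genes 2 or more probes were detected on all 8 arrays. All probes had the same sign for 20 of them in the tumour comparison and for 21 in the antibody comparison. The widest disagreement in the antibody comparison was that of Ndufs3, singled out after its values were seen: its brightest probe gave -0.19 and the dimmer one 1.45.

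In tumour-free mice, anti-IL-6R against control antibody gave a median of 0.12 over the 89 genes, with 84 above 0 and 0 called, where 0.0186% of all genes were called. All genes tested leaned the same way, with a median of 0.032 and 58.5% above 0. None of the 89 was higher at an unadjusted p under 0.05, where 4.8% of all genes were. Of the 89, 1 was lower, Cox7b2 at -0.53 ± 0.21 (limma, adjusted p = 0.61). In 39 of 89 (43.8%) both anti-IL-6R arrays lay above both control arrays, against 25.0% of all genes. The median here was 0.033 without replicate 2 and 0.20 without replicate 1, so the size rests on the split between those control arrays. Under anti-IL-6R, tumour-bearing against tumour-free mice gave a median of -0.18 (-0.081 after quantile normalization and -0.12 without replicate 8), with 87 below 0 and 0 called, where 0.307% of all genes were called. All genes tested leaned the same way, with a median of -0.057 and 38.3% above 0. At an unadjusted p under 0.05, 20 of 89 (22.5%) were lower, against 4.3% of all genes. In 84 of 89 (94.4%) both tumour-bearing arrays lay below both tumour-free arrays, against 34.4% of all genes.

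The antibody effect in tumour-bearing mice minus that in tumour-free mice, the interaction term of the fit, had a median of -0.39 (-0.25 after quantile normalization), with 87 of 89 genes below 0. All genes tested leaned the same way, with a median of -0.093 and 39.0% above 0. None of the 89 genes was called, where 0.0418% of all genes were called. At an unadjusted p under 0.05, 65 of 89 (73.0%) were below 0, against 15.2% of all genes. The smallest adjusted p was that of Ndufb9, at 0.081 with a difference of -0.60 ± 0.13. Uqcrc1 stood at -0.44 ± 0.11 and Cox7b2 at 0.995 ± 0.29 (adjusted p = 0.093 and 0.11). So no single respiratory chain gene passed the test of a difference in antibody effect between hosts.

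Subunits encoded by the mitochondrial genome lay mostly on the other side of 0 from the nuclear genes. Of 11 measured, 9 lay below 0 in the tumour comparison under control antibody (median -0.17) and 8 above 0 in the antibody comparison in tumour-bearing mice (median 0.093). In limma 0 of 11 were called in any of the 5 comparisons, while at an unadjusted p under 0.05 there were 1 higher and 4 lower in the first and 1 higher and 1 lower in the second. After quantile normalization 3 and 2 of the 11 were called, where 6.8% and 6.03% of all genes were. COX1, a catalytic subunit of complex IV, had levels of 8.55 and 8.42 in tumour-bearing mice with anti-IL-6R, 8.61 and 8.56 in tumour-free mice with anti-IL-6R, 8.20 and 8.48 in tumour-bearing mice with control antibody, and 8.58 and 8.49 in tumour-free mice with control antibody. Both tumour-bearing control arrays lay below both tumour-free control arrays. It stood at -0.20 ± 0.10 in the tumour comparison (adjusted p = 0.27), ND5 at -0.20 ± 0.07 and ND1 at -0.19 ± 0.07 (adjusted p = 0.12 and 0.16). ND6, the subunit transcribed from the other strand of the mitochondrial genome, stood at 0.32 ± 0.10 (adjusted p = 0.088). The negative median in the tumour comparison and the positive one in the antibody comparison kept their sign under quantile normalization (-0.18 and 0.19), while in tumour-bearing against tumour-free mice under anti-IL-6R the median was -0.063, and 0.044 after quantile normalization. The difference between nuclear and mitochondrial genes was not tested.

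Other lists of mitochondrial genes, chosen with earlier results of these data known, mostly leaned the way of the nuclear subunits. The exceptions were the regulators and, in the tumour comparison, the citric acid cycle. Of all genes tested, 6.23% were called in the tumour comparison and 5.88% in the antibody comparison. At an unadjusted p under 0.05, 14.2% of all genes were higher in the first and 17.2% lower in the second. Of 35 assembly factors of complexes II to V and of supercomplexes, 30 lay above 0 in the tumour comparison (median 0.14). In it 0 were called, and 8 were higher at an unadjusted p under 0.05. In the antibody comparison 34 lay below 0 (median -0.19), and 12 were lower at an unadjusted p under 0.05. There 2 of 35 were called, a share like the 5.88% of all genes. These were Cmc2 and Pet100, factors of complex IV assembly, which fell by 0.58 ± 0.11 and 0.36 ± 0.08 (limma, adjusted p = 0.028 and 0.044). Of 8 further assembly factors of complex I, 7 lay above 0 in the tumour comparison and 6 below 0 in the antibody comparison, with 0 called in limma. At an unadjusted p under 0.05, 3 of them were higher and 1 lower in the first, and 1 higher and 4 lower in the second. Of 9 electron carriers and ubiquinone-linked dehydrogenases, 1 was called in the tumour comparison. This was Etfb, a subunit of the electron transfer flavoprotein, which rose by 0.44 ± 0.10 (limma, adjusted p = 0.038). Cycs, cytochrome c, stood at 0.24 ± 0.08 in the tumour comparison and -0.28 ± 0.08 in the antibody comparison (adjusted p = 0.11 and 0.069). A list of 8 genes of ATP synthase regulation and mitochondrial transport held Atpif1, Slc25a3, Slc25a4, Slc25a5, Ucp2 and Vdac1 to Vdac3. All 8 lay above 0 in the tumour comparison and below 0 in the antibody comparison. Atpif1, the inhibitor of ATP hydrolysis by the synthase, rose by 0.58 ± 0.12 in the tumour comparison (limma, adjusted p = 0.033). It was the 1 gene of the 8 called there.

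The citric acid cycle, which supplies NADH and succinate, had a median of 0.027 over 17 genes in the tumour comparison. That equalled the 0.027 over all genes tested, and 11 of the 17 lay above 0. Of the 17, 0 were called, against 6.23% of all genes. At an unadjusted p under 0.05, 2 were higher, against 14.2% of all genes. In the antibody comparison the median of the cycle was -0.14. There 1 of 17 was called, a share like the 5.88% of all genes. This was Mdh2, the malate dehydrogenase of the cycle, which fell by 0.33 ± 0.07 (limma, adjusted p = 0.039). Of 19 measured regulators of mitochondrial gene expression, 0 were called in either, with medians of -0.021 and 0.041. At an unadjusted p under 0.05, 1 was higher and 1 lower in the first, and 2 higher and 2 lower in the second. Tfam, the main mitochondrial transcription factor, stood at 0.07 and -0.13, Nrf1 at 0.01 and 0.05 and Gabpa at 0.03 and -0.01. Esrra, the receptor ERRalpha, stood at 0.10 ± 0.07 and -0.23 ± 0.07 (adjusted p = 0.42 and 0.077), and Myc at -0.31 ± 0.13 and 0.22 ± 0.13 (adjusted p = 0.19 and 0.29). Ppargc1b, a coactivator of these factors, stood at -0.25 ± 0.11 and 0.16 ± 0.11 (adjusted p = 0.21 and 0.36). Ppargc1a did not pass the filter and was not tested.

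**Figure D4:**
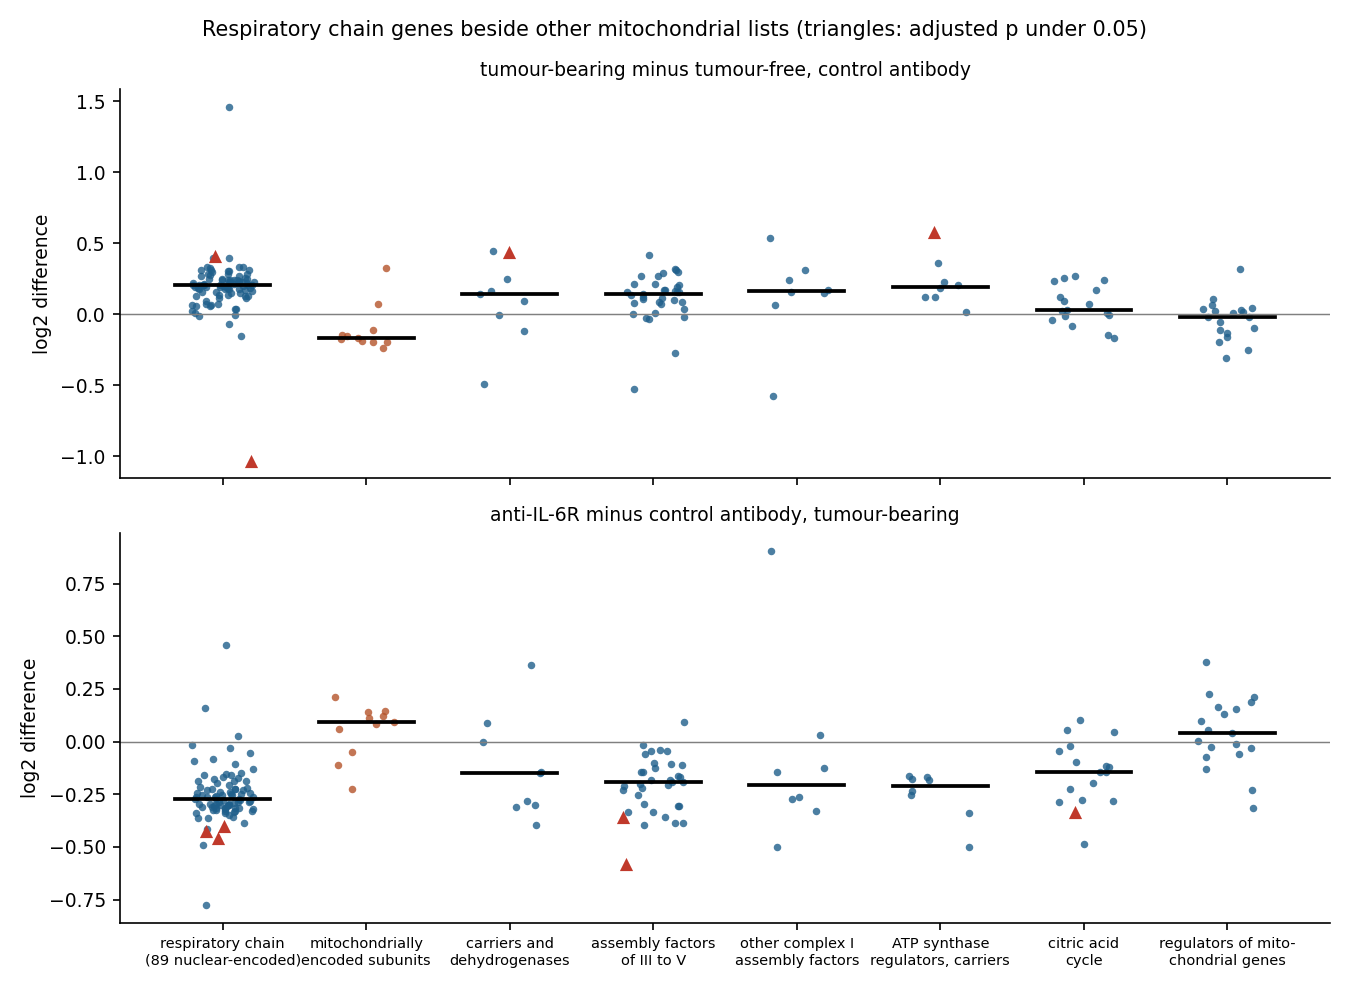
Log2 difference of group means (vertical axis) for the 89 nuclear-encoded respiratory chain genes and 7 other mitochondrial lists (horizontal axis), in the tumour comparison under control antibody (top) and the antibody comparison in tumour-bearing mice (bottom). Points are genes, triangles genes called at an adjusted p under 0.05 and bars list medians. The mitochondrially encoded subunits have medians of -0.17 and 0.093, against 0.20 and -0.27 for the nuclear genes.

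The nuclear genes moved together on the arrays, and their promoters were searched for the motifs of factors known to act on respiratory genes. RefSeq promoter windows (GRCm38.p6) were at hand for 74 of the 89 genes, with 80 windows, and the 250 bases before the start were searched on both strands, overlapping matches being counted for each motif. The NRF1 motif GCGCANGCG was in 20% of these windows against 5.16% of all 32851 promoters, and the ETS motif CCGGAAG of GABPA in 16.2% against 6.91%. The YY1 motif AANATGGC was in 10% against 3.91%, the ERRalpha motif AAGGTCA in 6.25% against 4.08% and the SP1 motif GGGCGG in 37.5% against 32.7%. Median GC content was 56.8% in these windows and 52.4% in all. A match is only a run of letters and shows no binding. The windows of the called genes Atp5h and Cox7b2, which fell in different comparisons, and of Ndufb8, the gene with the smallest p in the tumour comparison among those with a window that were not called, are shown 5′ to 3′ with matches in capitals.
Atp5h, chr11:115419920-115420169, minus strand: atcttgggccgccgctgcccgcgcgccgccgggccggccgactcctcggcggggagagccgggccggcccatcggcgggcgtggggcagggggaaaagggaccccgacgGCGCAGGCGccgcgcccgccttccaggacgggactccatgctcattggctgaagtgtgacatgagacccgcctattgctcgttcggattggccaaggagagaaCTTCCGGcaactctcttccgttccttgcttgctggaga
Cox7b2, chr5:71548206-71548455, minus strand: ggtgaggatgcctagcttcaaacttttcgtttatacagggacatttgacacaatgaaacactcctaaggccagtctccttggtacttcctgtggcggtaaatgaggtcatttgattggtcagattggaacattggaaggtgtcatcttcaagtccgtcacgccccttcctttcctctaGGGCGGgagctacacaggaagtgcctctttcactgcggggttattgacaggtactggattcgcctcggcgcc
Ndufb8, chr19:44555443-44555692, minus strand: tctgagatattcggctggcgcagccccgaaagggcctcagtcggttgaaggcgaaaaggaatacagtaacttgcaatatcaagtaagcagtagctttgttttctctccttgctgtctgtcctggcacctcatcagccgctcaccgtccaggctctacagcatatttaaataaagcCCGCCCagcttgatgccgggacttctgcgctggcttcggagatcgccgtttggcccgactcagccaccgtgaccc
The capitals mark an NRF1 match starting 141 bases before the start and a GABPA match starting 38 bases before it in Atp5h, and a single SP1 match in Cox7b2 (72 bases before) and in Ndufb8 (75 bases before).

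Markers of proliferation and of other blood cells moved in the same comparisons. Over all genes tested, 6.23% were called in the tumour comparison and 5.88% in the antibody comparison. Of 12 cell cycle genes, all 12 lay above 0 in the tumour comparison (6 called higher) and all 12 below 0 in the antibody comparison in tumour-bearing mice (9 called lower). The unit of the sums below is the array's 75th percentile. The summed signal of the cell cycle genes was 80.1 to 86.3 in tumour-bearing mice with anti-IL-6R, 90.3 to 107 in tumour-free mice with anti-IL-6R, 118 to 132 in tumour-bearing mice with control antibody and 90.6 to 96.2 in tumour-free mice with control antibody. All 7 CD4+ T cell markers lay above 0 in the first comparison (1 called) and below 0 in the second (0 called). At an unadjusted p under 0.05, 6 of these markers were lower in the second, against 17.2% of all genes. Their medians were 0.18 and -0.25, close to the 0.20 and -0.27 of the respiratory chain genes. The summed signal of the CD4+ T cell markers was 638 to 724 in tumour-bearing mice with anti-IL-6R and 729 to 769 in tumour-free mice with anti-IL-6R. It was 813 to 830 in tumour-bearing mice with control antibody and 676 to 757 in tumour-free mice with control antibody.

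The shares of all genes called, 6.23% in the tumour comparison and 5.88% in the antibody comparison, stand beside each list that follows. Of 12 erythroid markers 9 were called higher in the tumour comparison and 7 lower in the antibody comparison. Their sum ran at 496 to 608 in tumour-bearing mice with anti-IL-6R, 515 to 620 in tumour-free mice with anti-IL-6R, 500 to 764 in tumour-bearing mice with control antibody and 195 to 379 in tumour-free mice with control antibody. Of 8 neutrophil markers 5 were called higher in the tumour comparison and 5 lower in the antibody comparison. They summed to 34.9 to 52.5 in tumour-bearing mice with anti-IL-6R, 37.4 to 151 in tumour-free mice with anti-IL-6R, 119 to 126 in tumour-bearing mice with control antibody and 33.2 to 52.9 in tumour-free mice with control antibody. Of 6 plasma cell markers 4 were called higher in the tumour comparison and 1 lower in the antibody comparison. Their sum ran at 30.3 to 32.5 in tumour-bearing mice with anti-IL-6R, 21.2 to 26.3 in tumour-free mice with anti-IL-6R, 41.6 to 44.9 in tumour-bearing mice with control antibody and 22.4 to 23.3 in tumour-free mice with control antibody. Of 8 B cell markers 6 were called lower in the tumour comparison and 4 higher in the antibody comparison. They summed to 43.5 to 46.8 in tumour-bearing mice with anti-IL-6R, 45.7 to 46.0 in tumour-free mice with anti-IL-6R, 23.3 to 32.9 in tumour-bearing mice with control antibody and 41.8 to 55.7 in tumour-free mice with control antibody. Of 5 NK cell markers 1 was called higher and 2 lower in the tumour comparison, and 2 higher in the antibody comparison. Their sum, most of it Gzma, ran at 10.3 to 11.4 in tumour-bearing mice with anti-IL-6R and 12.9 to 13.3 in tumour-free mice with anti-IL-6R. It ran at 7.37 to 7.68 in tumour-bearing mice with control antibody and 10.7 to 12 in tumour-free mice with control antibody. Of 6 macrophage and monocyte markers 1 was called higher in each comparison. They summed to 207 to 246 in tumour-bearing mice with anti-IL-6R, 170 to 199 in tumour-free mice with anti-IL-6R, 153 to 197 in tumour-bearing mice with control antibody and 152 to 161 in tumour-free mice with control antibody. Neither of the CD8 T cell genes was called. Their sum ran at 5.56 to 6.71 in tumour-bearing mice with anti-IL-6R, 7.18 to 8.12 in tumour-free mice with anti-IL-6R, 5.53 to 8.17 in tumour-bearing mice with control antibody and 8.02 to 8.05 in tumour-free mice with control antibody. Epb42, Ltf, Ngp, Mpo and Sdc1 were among the markers not well above background on at least 1 array. Of these, Epb42, Ngp and Sdc1 passed the filter only through tumour-bearing mice with control antibody, the group where they were highest. They are counted in the erythroid, neutrophil and plasma cell lists, so those counts are not independent of the filter. The part of proliferation and of other blood cells in the shift of the respiratory chain genes was not tested.

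**Figure D5:**
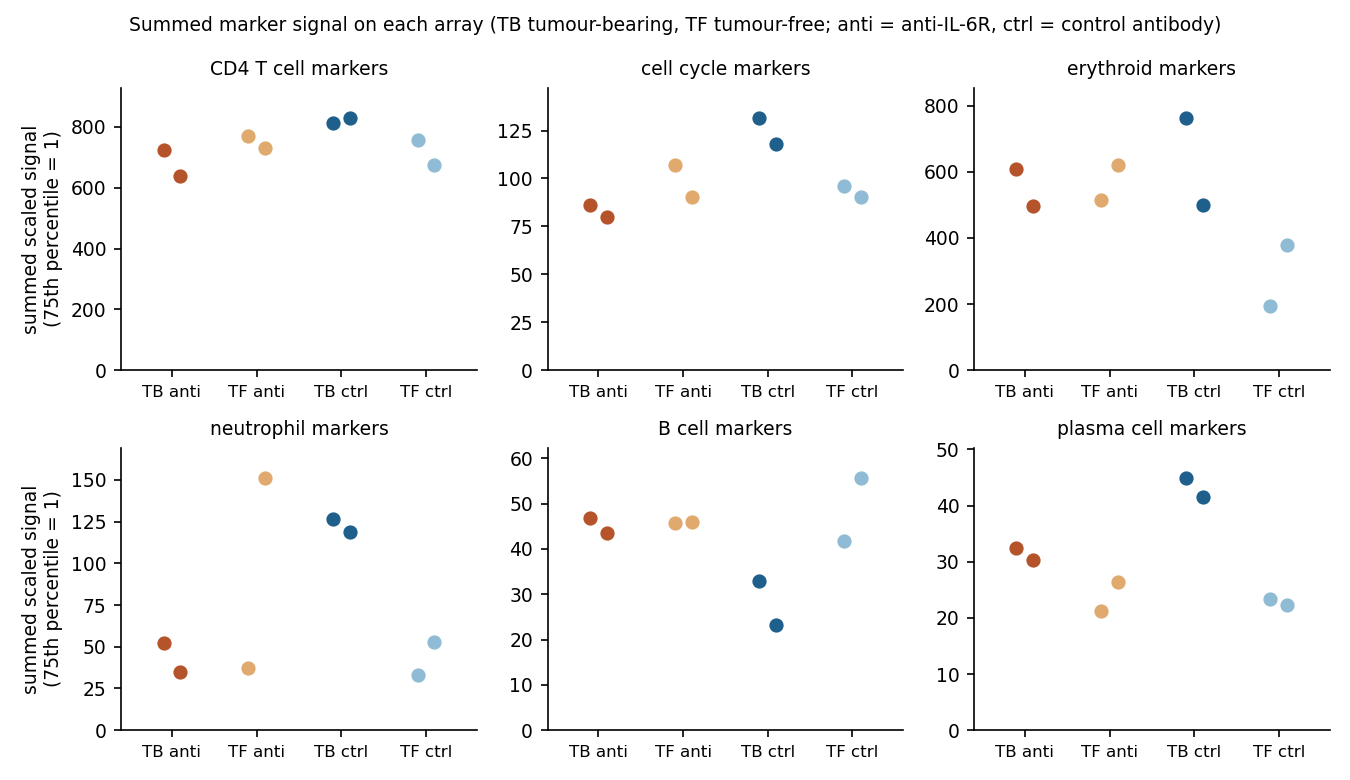
Summed scaled signal of 6 marker lists (vertical axis, in multiples of the array's 75th percentile, from 0) in the 4 groups (horizontal axis). Points are arrays. Cell cycle, plasma cell and CD4 T cell markers are highest on both tumour-bearing control arrays, B cell markers are lowest there, and neutrophil markers are also high on 1 tumour-free anti-IL-6R array.

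All 8 arrays shared 1 slide. Control antibody arrays filled 1 slide column and anti-IL-6R arrays the other, tumour-free samples rows 1 and 2 and tumour-bearing samples rows 3 and 4, so position on the slide and the group cannot be told apart. Between 53.1% and 59.8% of probes were well above background, 0 spots were saturated, and across genes the arrays correlated at 0.992 to 0.994 within groups and 0.978 to 0.992 between groups. With 2 arrays in each group, their number sets how precise any value can be.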

How the data were processed

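CD4+ T cell RNA (0.1 µg, Cy3-labelled) was hybridised to 8 arrays, 2 in each of 4 groups taken from the sample labels. Per the submitters' processing notes, the authors obtained spot intensity with Agilent Feature Extraction 10.10.1.1, and per the file headers the processed signal was detrended over the slide with local background correction off, and probe positions are on mm9. The deposited value table holds log2 values equal to those signals over the array's 75th percentile (median offsets of -0.00815 to -0.00213, r = 1).

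Outlier spots (60 to 95 per array) were dropped, spots averaged per probe and the 75th percentile (500 to 526) taken over 56587 probes, each counted once. Probes were kept where some group had them well above background on each of its arrays, and the brightest kept probe stood for each of 21519 genes. The 5 comparisons were fitted in limma 3.58.1 (R 4.3.3, the data.table package at version 1.17.8) as 4 group means with a variance trend (4 residual and 4.16 prior degrees of freedom), two-sided, Benjamini-Hochberg adjusted over all genes. The fit was tested on simulated data for the tumour comparison under control antibody only, with each gene drawn independently. Such data lack the joint movement of genes on an array, so this test does not cover it. Python 3.11.15, pandas 2.3.3 and matplotlib 3.10.9 did the rest.

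The members, lists and tests were chosen with earlier results of these data known. Genes were named if called, if among the smallest p of their class or list, or if an isoform or defining marker. The 17 alternatives were quantile normalization, normexp background (offset 50), no filter or an 8-array filter, no trend, array weights, 2-group fits, the mean over probes, the deposited table and leaving out each array. Depth does not apply to arrays, whose number limits the precision.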

Additional observations from a re-analysis of the deposited data

How the results depend on the processing

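The member medians kept their sign in all 5 comparisons under all 17 alternatives (16 for the interaction), and none of the named genes' calls reversed. The number of respiratory chain genes called did change. In the tumour comparison under control antibody, 2 in the fit reported, it was 15 after quantile normalization (6.8% of all genes) and 0 without a filter on dim probes (1.55%). It was 1 without a variance trend (2.88% of all genes), with array weights (3.56%) or with only the 2 groups fitted (7.46%). In the antibody comparison in tumour-bearing mice, 3 in the fit reported, it was 16 after quantile normalization (6.03% of all genes), 14 with normexp background (8.2%) and 7 with the 8-array filter (7.77%). It was 0 without a filter (0.0676% of all genes) or without a trend (0.404%), and 1 with only the 2 groups fitted (3.24%). The arrays on which each call of a respiratory chain gene rests are named with its gene above. For the calls of Etfb, Atpif1, Cmc2, Pet100 and Mdh2, from the other lists, those arrays are not given. For the anti-IL-6R effect in tumour-free mice, the tumour comparison under anti-IL-6R and the interaction, 0 were called in the fit reported. The same held in every alternative other than leaving out an array. Leaving out an array leaves 1 in its group, which is assumed to vary like the other groups. After quantile normalization the median was -0.081 in the tumour comparison under anti-IL-6R and -0.25 in the interaction. Leaving out 1 array moved the medians between 0.12 (without replicate 2) and 0.29 in the tumour comparison under control antibody, -0.33 and -0.21 in the antibody comparison in tumour-bearing mice, 0.033 and 0.20 in tumour-free mice, -0.24 and -0.12 in the tumour comparison under anti-IL-6R, and -0.48 and -0.31 in the interaction. Adjusted p over the alternatives ranged between 0.017 and 0.21 for Ndufb9 in the tumour comparison and between 0.032 and 0.25 in the antibody comparison, between 0.022 and 0.11 for Cox7b2, between 0.023 and 0.17 for Atp5h and between 0.032 and 0.28 for Uqcrq. Of all genes, 1341 were called in the tumour comparison under control antibody (287 without replicate 2, 572 without a filter, 619 without a trend and 766 with array weights) and 1266 in the antibody comparison in tumour-bearing mice (19 without replicate 8, 25 without a filter, 87 without a trend, 215 without replicate 3, 263 without replicate 4 and 697 with only the 2 groups fitted). All 89 members were well above background on every array, and 2 arrays per group limit the precision. The causes of these changes were not tested. No paired analysis was possible because the labels do not say which arrays share an experiment, and their running numbers differ between groups.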
